A study of Homo sapiens with 3 samples.

Results

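DANCR siRNA1 and DANCR siRNA2 are a pair of small interfering RNAs aimed at the same long noncoding RNA, and the comparison described here sets the array of cells given siRNA1 against the array of cells given siRNA2. The members were chosen by their labels and are 2 of the 3 samples of the series. All samples were UM-UC-3 cells, an established human bladder cancer line. They were transfected with 75 nM of a negative control siRNA, DANCR siRNA1 or DANCR siRNA2, and RNA was taken after 48 h and hybridised to Affymetrix arrays, 1 array per group. The control array served as the reference level. The reagent was Lipofectamine RNAimax, and the arrays took biotin-labelled cRNA. Since each group had 1 array, no replicate check was possible, no p-value was computed, and every difference given is a size on these arrays.

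A small interfering RNA is a short duplex, of which one strand is loaded into an Argonaute protein and guides the cleavage of a fully matching transcript. Bases 2 to 8 of the loaded strand, the seed, can also repress other transcripts that match only there. For this reason siRNAs of different sequence against 1 target are commonly compared. DANCR itself is a long noncoding RNA that hosts a small nucleolar RNA and has been studied in cancer and in stem cell differentiation.

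The sequences of the siRNAs are shown because they are the labelled difference between the arrays. The labels did not say which strand they give, so the deposited strand and its reverse complement are both printed, with bases 2 to 8 in capitals. The last 2 bases of the deposited strands are a tt overhang.
DANCR siRNA1, deposited strand: gCGUACUAacuuguagcaatt
DANCR siRNA1, reverse complement without the overhang: uUGCUACAaguuaguacgc
DANCR siRNA2, deposited strand: gAGCUAGAgcagugacaautt
DANCR siRNA2, reverse complement without the overhang: aUUGUCACugcucuagcuc
Control siRNA, deposited strand: uUCUCCGAacgugucacgutt
Control siRNA, reverse complement without the overhang: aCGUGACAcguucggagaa

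The DANCR siRNAs shared no seed on either strand. Aligned end to end, their 19-base cores had the same base at 6 positions, and the longest run of bases found in both was 4. Their G and C content was 8 of 19 bases in siRNA1 and 9 of 19 in siRNA2. The labels placed them 43 bases apart, at positions 390 and 433, under a tag that names WDR5, and the transcript behind these positions was not given. None of the 6 strands had the same bases 2 to 8 as any of 2370 mature human miRNAs in RefSeq (GRCh38.p14). Matches of the seeds to transcripts were not analysed here.

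The targeted RNA was at a near equal level on both siRNA arrays. DANCR had an intensity of 116 with siRNA1, 126 with siRNA2 and 671 with the control siRNA. Where 3 intensities are given in a row from here on, their order is siRNA1, siRNA2 and control. Both siRNA arrays were far below the control in DANCR, and they differed from each other by 1.08-fold. The median of the table, an intensity of 10.5, was used as a floor to which lower values were raised, and 48.9% to 49.3% of probe sets lay above it. The 18 bacterial spike probe sets differed between the siRNA arrays by at most 0.0971 (log2). Over all 49 measured control probe sets the largest difference was 0.777 (log2). The 3'/5' signal ratio of ACTB was 11.8 with siRNA1 and 14.4 with siRNA2, against 11.9 in the control, and that of GAPDH was 1.29, 1.35 and 1.25. Such a ratio rises as RNA is degraded or copied less completely, and its part in any difference described here was not tested.

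Of 12436 genes above the floor on at least 1 array, 188 were at least 2-fold higher with siRNA1 than with siRNA2 and 299 were at least 2-fold lower. These are 1.51% and 2.4% of measured genes, 3.92% in all. Ratios to the control passed 2-fold in 3.62% of genes with siRNA1 (1.87% higher and 1.75% lower) and in 3.36% with siRNA2 (2.15% higher and 1.21% lower). Both of those comparisons share the control array. The ratio between the siRNA arrays was exactly 0 on the log2 scale in 21.5% of genes. Over all deposited probe sets, 43.6% had the same value on both siRNA arrays to a relative tolerance of 1e-09; how such equal values arose is not given in the sources used here. The excess of lower over higher genes was seen at 3 levels of intensity and not at the brightest. With genes put into 4 groups of 3109 by mean intensity, 59 of the brightest were 2-fold higher with siRNA1 and 55 lower. The next groups had 59 and 97, 54 and 111, and, among the dimmest, 16 and 36.

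**Figure D1:**
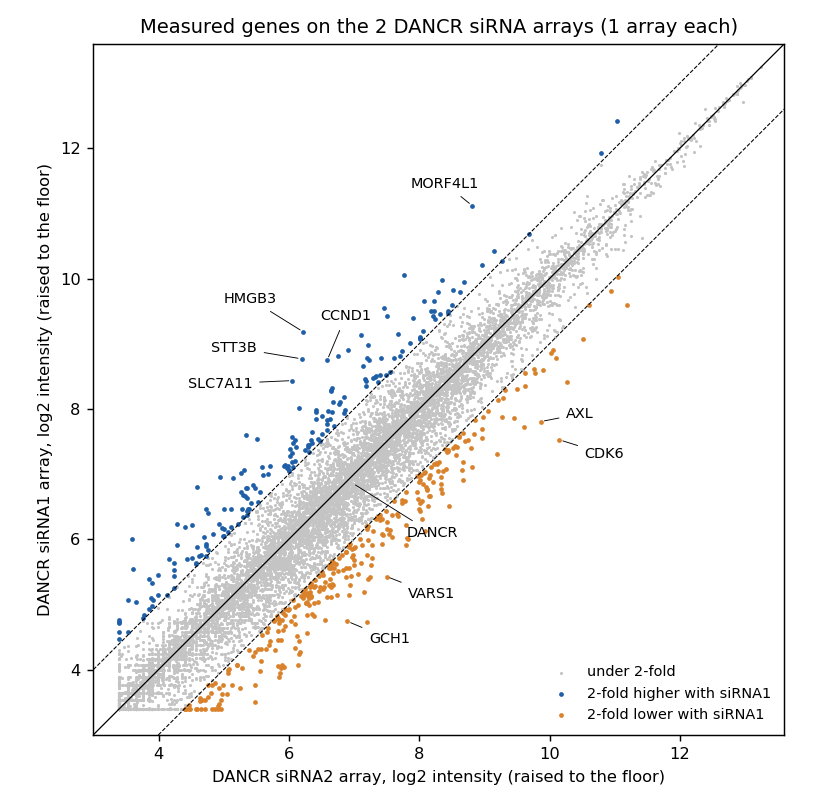
Log2 intensity of each measured gene with siRNA1 (vertical axis) against siRNA2 (horizontal axis), 1 array each, with lower values raised to the floor of 10.5. The solid line marks equal intensity and the dashed lines 2-fold. DANCR lies near the solid line, with HMGB3 and STT3B among the genes farthest above it and CDK6 farthest below.

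Further probe sets of the same genes were used to see how far a gene's difference depends on where it is probed. They share the RNA of the array and are not replicates. Among genes 2-fold higher with siRNA1, 105 of 188 had further measured probe sets. Of these 175 probe sets 137 were also higher and 59 were 2-fold higher, with none 2-fold lower. Among genes 2-fold lower, 159 of 299 had further probe sets, 291 in all. In that group 233 were also lower, 77 were 2-fold lower and 1 was 2-fold higher. For probe sets with a mean intensity of at least 50, 55.4% repeated the 2-fold difference among the higher genes and 51.1% among the lower. Over the further probe sets of all measured genes at that intensity, 1.92% were 2-fold higher and 2.29% lower.

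The control array was used to see which of the siRNA arrays lay apart from it. Among the 188 genes higher with siRNA1, siRNA2 alone lay 2-fold from the control in 68 and siRNA1 alone in 34. In 84 neither lay 2-fold from the control, so the gap was the sum of smaller shifts. Among the 299 genes lower with siRNA1, siRNA1 alone was 2-fold from the control in 90, siRNA2 alone in 64 and neither in 141. Both arrays passed 2-fold in the same direction in 1 of the higher and 4 of the lower genes. The control lay strictly between the siRNA arrays in 72.3% of the higher and 76.3% of the lower genes. These genes were chosen for a wide gap between the siRNA arrays, which by itself makes such a position common. No share over other genes is set beside it, so nothing is concluded from it.

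**Figure D2:**
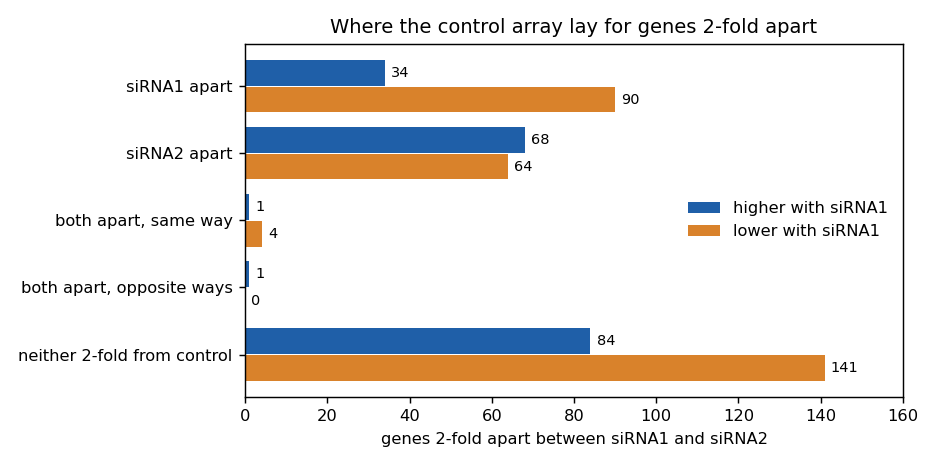
Number of genes (horizontal axis) that were 2-fold apart between siRNA1 and siRNA2, by which siRNA array lay at least 2-fold from the control array. The most common class in both directions, with 84 and 141 genes, held genes in which neither siRNA array alone was 2-fold from the control.

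In most of the genes farthest above with siRNA1, the siRNA2 array was the one apart from the control. Of the 15 highest genes measured above the floor on both arrays, siRNA2 alone was 2-fold from the control in 10. HMGB3, a chromatin protein of the high mobility group, had intensities of 581 with siRNA1, 74.5 with siRNA2 and 439.6 with the control siRNA. The siRNA1 array was near the control and the siRNA2 array stood far below both, a gap of 7.8-fold. Its second probe set read 46.3, 21.4 and 103 in the same order, and there siRNA1 also lay below the control. STT3B, a catalytic subunit of the complex that transfers N-glycans to proteins, had 436 with siRNA1, 73.3 with siRNA2 and 388 with the control siRNA on its only measured probe set. Again only siRNA2 stood apart, with 5.95-fold between the siRNA arrays.

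Other genes likewise had siRNA2 far below the other arrays. SKP2, the F-box protein that marks the cell cycle inhibitor p27 for degradation, had 746 with siRNA1, 175 with siRNA2 and 650.5 with the control siRNA. Its further probe set gave a log2 ratio of 1.85 between the siRNA arrays, close to the 2.09 of the first. SNRNP40, a protein of the U5 spliceosome particle, read 193, 40.5 and 181 with siRNA1, siRNA2 and the control siRNA. GGCT, a gamma-glutamylcyclotransferase, read 563, 138 and 715 in that order. DYNLT2B, a dynein light chain, read 124, 30.9 and 95.5. SNRNP40, GGCT and DYNLT2B had 1 measured probe set each, so their difference had no check at another position.

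In some genes of this group the probe sets disagreed. TMED10, a cargo receptor of early secretory vesicles, was 4.9-fold higher with siRNA1 on its brightest probe set (1066, 218 and 951 with siRNA1, siRNA2 and the control siRNA). On its next probe set it read 444, 388 and 311, with both siRNA arrays above the control, and the third gave a log2 ratio of 0.11. MORF4L1, a chromatin reader, had a log2 ratio of 2.31 on the brightest probe set and 0.59 and 0.39 on the others. NETO2, an auxiliary subunit of kainate receptors, read 480.2, 120.4 and 628 on one probe set, and the other had a log2 ratio of -0.33. By the median over probe sets none of these 3 genes was 2-fold apart (0.19, 0.59 and 0.83).

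A smaller group was high with siRNA1. SLC7A11, the cystine importer that supplies glutathione synthesis, had 346 with siRNA1, 66.5 with siRNA2 and 90.5 with the control siRNA. The siRNA1 array was far above both others and siRNA2 was the lowest of the 3. A second probe set read 80.0, 13 and 16.9 and gave a log2 ratio of 2.63 between the siRNA arrays, larger than the 2.38 of the first. On the dimmest, which read 12.5, 10.3 and 9.67, it was 0.25. DNAJC6, an auxilin that helps strip clathrin from vesicles, had 64.2 with siRNA1, 12.1 with siRNA2 and 22.7 with the control siRNA, low values throughout. PLEKHB2 read 448, 108 and 214 and its second probe set 171, 36.6 and 79.5, both with siRNA1 highest and siRNA2 lowest, and the third had a log2 ratio of 0.19. TMTC3, an O-mannosyltransferase of the endoplasmic reticulum, was about as far above the control with siRNA1 as below it with siRNA2 on its brightest probe set. Its second probe set read 119, 36.8 and 116, with siRNA1 near the control and only siRNA2 far below it. TMTC3 had log2 ratios between the siRNA arrays of 2.03, 1.69 and 1.60 on its 3 probe sets.

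The cyclin D1 gene CCND1 was below the control with both siRNAs and by unequal amounts. Its intensity was 429.9 with siRNA1, 96.2 with siRNA2 and 1044 with the control siRNA. The siRNA2 array was 4.47-fold below the siRNA1 array, a gap of 1.61 (log2) on the second probe set, which read 386, 126 and 849.8. CCND1, IL11 and PLAU were followed up by the study as genes lower after loss of DANCR, a choice that rests on these samples.

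Among the genes farthest below with siRNA1, the siRNA1 array was more often the one apart from the control. Of the 15 lowest genes siRNA1 alone was 2-fold from the control in 10 and siRNA2 alone in 5. AXL, a receptor tyrosine kinase, had 224 with siRNA1, 934 with siRNA2 and 1289.7 with the control siRNA. The siRNA1 array stood far below both others, 4.17-fold below siRNA2, and the dimmer probe set gave a log2 ratio of -0.67. GCH1, which starts tetrahydrobiopterin synthesis, read 26.8, 119 and 125 with siRNA1, siRNA2 and the control siRNA. WSB2, a SOCS-box adaptor, read 210.2, 781 and 1061 in that order. In both genes siRNA2 stayed within 1.5-fold of the control and siRNA1 did not.

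Other genes of this group have varied roles. SURF1, an assembly factor of cytochrome c oxidase, had 69.9 with siRNA1, 272 with siRNA2 and 211 with the control siRNA. MCOLN1, a lysosomal cation channel, read 15.4, 58.4 and 46.2, and SCD5, a fatty acid desaturase, read 36.6, 142 and 95.6. HECTD3, a ubiquitin ligase, read 14.9, 57.8 and 39.5, and EVI2A read 18.8, 71.5 and 78.5. PLEKHA2, which binds phosphoinositides, had 91.3, 350.1 and 193, with siRNA1 below and siRNA2 above the control. VARS1, the valyl-tRNA synthetase, had 43.1, 181 and 148 on its brightest probe set and 31, 33.8 and 34.9 on the other, where the arrays hardly differed. By the median over probe sets SCD5 (-0.98) and SURF1 (-0.85) were short of 2-fold, as were HECTD3 (-0.96) and MCOLN1 (-0.97) with the floor at the 70th percentile.

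The remaining genes of this set were high with siRNA2. CDK6, the kinase that D-type cyclins activate, had 184 with siRNA1, 1137 with siRNA2 and 316 with the control siRNA. The siRNA2 array was far above both others and siRNA1 lay below the control, 6.17-fold apart. The next probe sets read 75.7, 431 and 118, and 66.1, 382 and 95, in the same order, with log2 ratios of -2.51 and -2.53 against -2.63 for the first. The 2 dimmest probe sets of CDK6 read 15.9, 24.3 and 6.87, and 13.5, 19.3 and 13.5, short of 2-fold (-0.61 and -0.51). FAM210B read 26.5, 148 and 40.5 and its second probe set 19.4, 51.2 and 21.9, also with siRNA2 highest. TIGD1 read 16.9, 70.3 and 22.2, TMEM45A 19.3, 72.2 and 17.9 and SLC33A2 11.3, 44.7 and 21.5, all with low control values and siRNA2 above it. With the floor at the 70th percentile SLC33A2 was at -0.59. Of the 30 genes named for the largest gaps, 17 had further measured probe sets and 8 of these had another one 2-fold apart the same way.

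**Figure D3:**
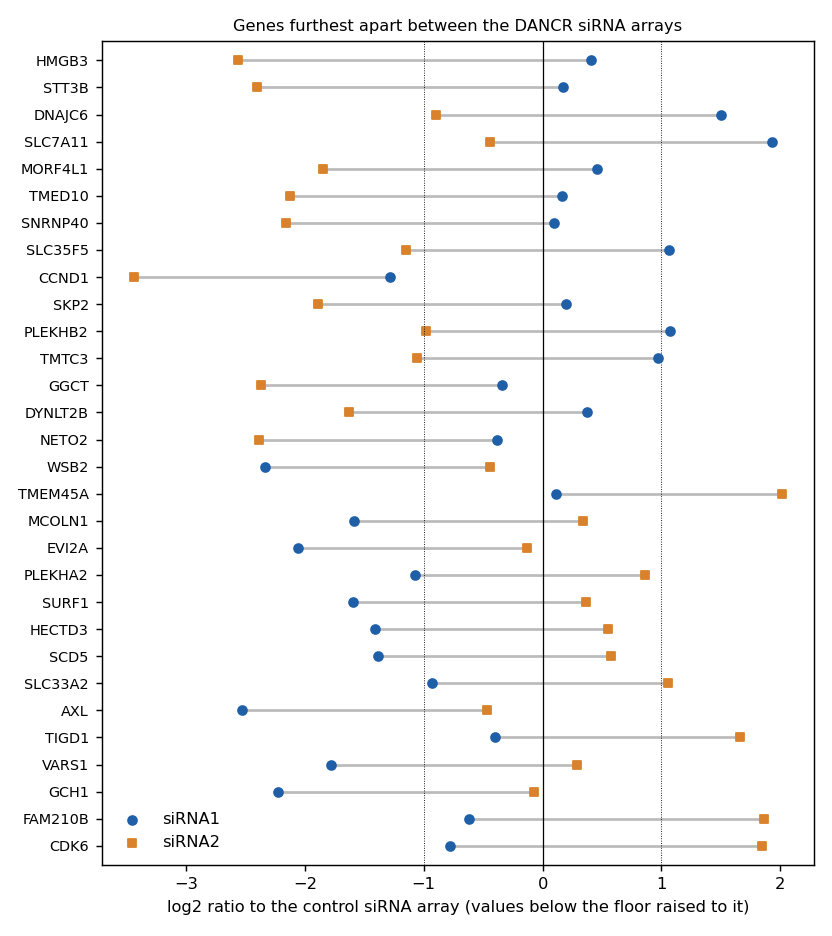
Log2 ratio to the control array (horizontal axis) with siRNA1 (circles) and siRNA2 (squares) for the 15 genes highest and the 15 lowest in siRNA1 over siRNA2, sorted by that gap. Both ratios use the same control array. HMGB3, STT3B and 8 more of the highest genes had siRNA2 alone past 2-fold, and AXL and GCH1 had siRNA1 alone past it.

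Genes that reached the floor on 1 siRNA array give only a bound. With siRNA1 at the floor, ZEB1-AS1 was at least 2.94-fold lower than with siRNA2 (intensity 31), ARL14 at least 2.85-fold and the matrix glycoprotein THBS1 at least 2.76-fold. IL11, a cytokine that signals through the shared receptor chain gp130, was at least 2.49-fold lower with siRNA1. It read 10.2, 26.2 and 101.5, so both siRNA arrays were far below the control. Its other probe set read 30.5, 31.5 and 42.2, with the siRNA arrays alike. MBD5 was at least 2.68-fold lower. With siRNA2 at the floor, SCARNA2, a small Cajal body RNA, was at least 2.58-fold higher with siRNA1, ZNF138 at least 2.53-fold, ZNF273 at least 2.49-fold, TMEM170B at least 2.27-fold and ZNF736 at least 2.11-fold. All of these were dim on the siRNA arrays, none above an intensity of 31. With the floor at the 70th percentile the log2 ratios of ZEB1-AS1 and ARL14 were -0.06 and -0.01 and that of IL11 was 0. By the median over probe sets THBS1 (-0.07) and IL11 (-0.68) were short of 2-fold.

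The genes with the largest gaps were then set beside other members of their families. These genes were given with the comparison or ranked by their gap. A count that includes CDK6, HMGB3, SLC7A11, STT3B, CCND1, AXL, VARS1, GCH1 or DNAJC6 was thus partly fixed beforehand and is no result about its list. In the list of G1 cyclins, kinases and inhibitors, 18 of 22 were measured. Of these 1 was 2-fold higher with siRNA1 (CCND1) and 2 were 2-fold lower (CDK6 and RB1), beside 1.51% and 2.4% of all measured genes. RB1, the retinoblastoma protein that CDK4 and CDK6 phosphorylate, read 121, 257 and 212 with siRNA1, siRNA2 and the control siRNA. CDK4, the close relative of CDK6, read 781, 730.2 and 802, nearly level. CCND2 read 179, 262 and 171 and CCND3 136, 123 and 155, so the gap of cyclin D1 was not seen in its relatives at that size. CCNE2, cyclin E2, read 269.6, 195 and 463 and RBL1, a relative of RB1, 116, 67.5 and 44.9. Apart from CCND1, CDK6 and RB1, 12 of 15 members lay within 1.5-fold, beside 10722 of 12436 measured genes. CDK2 read 268 on all 3 arrays.

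In the high mobility group family 13 of 14 genes were measured. Of these 1 was 2-fold higher with siRNA1 and 2 were 2-fold lower, beside 1.51% and 2.4% of all measured genes. HMGB3 was 2-fold higher with siRNA1, while HMGA2 (82.7, 169.5 and 104) and HMG20B (60.3, 122 and 74.4) were 2-fold lower, though by the median over probe sets they were not (-0.33 and -0.69) and by quantile normalisation both were just short. The closest relatives of HMGB3 did not show its gap. HMGB1 read 4438, 4264 and 4502 and HMGB2 2115, 1569 and 2503, log2 ratios of 0.06 and 0.43. Without HMGB3, HMGA2 and HMG20B, the 10 remaining members had log2 ratios from -0.27 to 0.43.

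STT3B, which was given with the comparison, had a gap not seen in the rest of its complex. STT3A, the other catalytic subunit, read 361, 404 and 355 with siRNA1, siRNA2 and the control siRNA. All 10 measured subunits other than STT3B lay within 1.5-fold between the siRNA arrays, with log2 ratios from -0.43 to 0.12. Among them were RPN1 (479, 473 and 458), RPN2 (1954, 1956 and 1954) and DDOST (528, 624 and 505). Over all measured genes 10722 of 12436 lay within 1.5-fold. In the whole list of N-glycan transfer and protein folding in the endoplasmic reticulum, 30 of 30 genes were measured. Of these 2 were 2-fold higher with siRNA1 and 1 was 2-fold lower, beside 1.51% and 2.4% of all measured genes. HERPUD1, which serves degradation of misfolded proteins, was also 2-fold higher with siRNA1 (727, 349 and 257). HYOU1, a chaperone of the same compartment, was 3.41-fold lower (119.8, 408 and 310.2), and its siRNA1 value was the one apart from the control. The median of the list was -0.05 (log2), against 0 over all measured genes.

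SLC7A11 was the only member of the glutathione and cystine list past 2-fold, of 19 measured, beside 3.92% of all measured genes. SLC3A2, its partner chain, read 141, 108 and 81.5, and the glutathione synthesis enzymes GCLC and GCLM read 168, 159 and 159 and 285, 283 and 285. NQO1, a quinone reductase induced by oxidative stress signalling, had log2 ratios of 0.84, 0.90 and 1.11 on its 3 probe sets. NFE2L2, the transcription factor of that response, read 383, 236 and 313. Of the 18 other members, 14 lay within 1.5-fold, beside 10722 of 12436 measured genes.

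SLC7A11 also belongs to the list of ATF4 and integrated stress response genes. ATF4 is a transcription factor made when translation is slowed, and its targets import and make amino acids. In that list 32 of 36 genes were measured, 5 were 2-fold higher with siRNA1 and 1 was lower, beside 1.51% and 2.4% of all measured genes, and the median was 0.24. Beside SLC7A11, the higher genes were VLDLR, a lipoprotein receptor (75.2, 19.4 and 45.6 with siRNA1, siRNA2 and the control siRNA), CHAC1, which degrades glutathione (84.8, 27.2 and 23.1), the pseudokinase TRIB3 (352, 144 and 124) and the transcription factor DDIT3 (182, 89.5 and 47.6). In CHAC1 and TRIB3 siRNA2 was near the control, whereas VLDLR was below it with siRNA2 and DDIT3 above it with both. TRIB3 was short of 2-fold by the median over its probe sets (0.79). SHMT2, a mitochondrial enzyme of serine metabolism, went the other way (325, 789 and 915), with log2 ratios of -1.28, -1.40 and -1.28 on its 3 probe sets.

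Short of 2-fold, ASNS, which makes asparagine, read 352, 197 and 173 and PHGDH, which starts serine synthesis, 161, 93.5 and 88.1. DDIT4, a stress-induced inhibitor of mTOR, was higher with siRNA2 (159.9, 317 and 142). ATF4 itself read 1381, 1184 and 1146. Cytosolic aminoacyl-tRNA synthetases, several of which are ATF4 targets, had a median of 0.11 over 18 measured of 23 (0 without _s_at and _x_at probe sets). VARS1 was the only member past 2-fold, beside 3.92% of all measured genes. CARS1 read 1099.5, 607 and 698 and LARS1 728, 444 and 492, both highest with siRNA1.

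**Figure D4:**
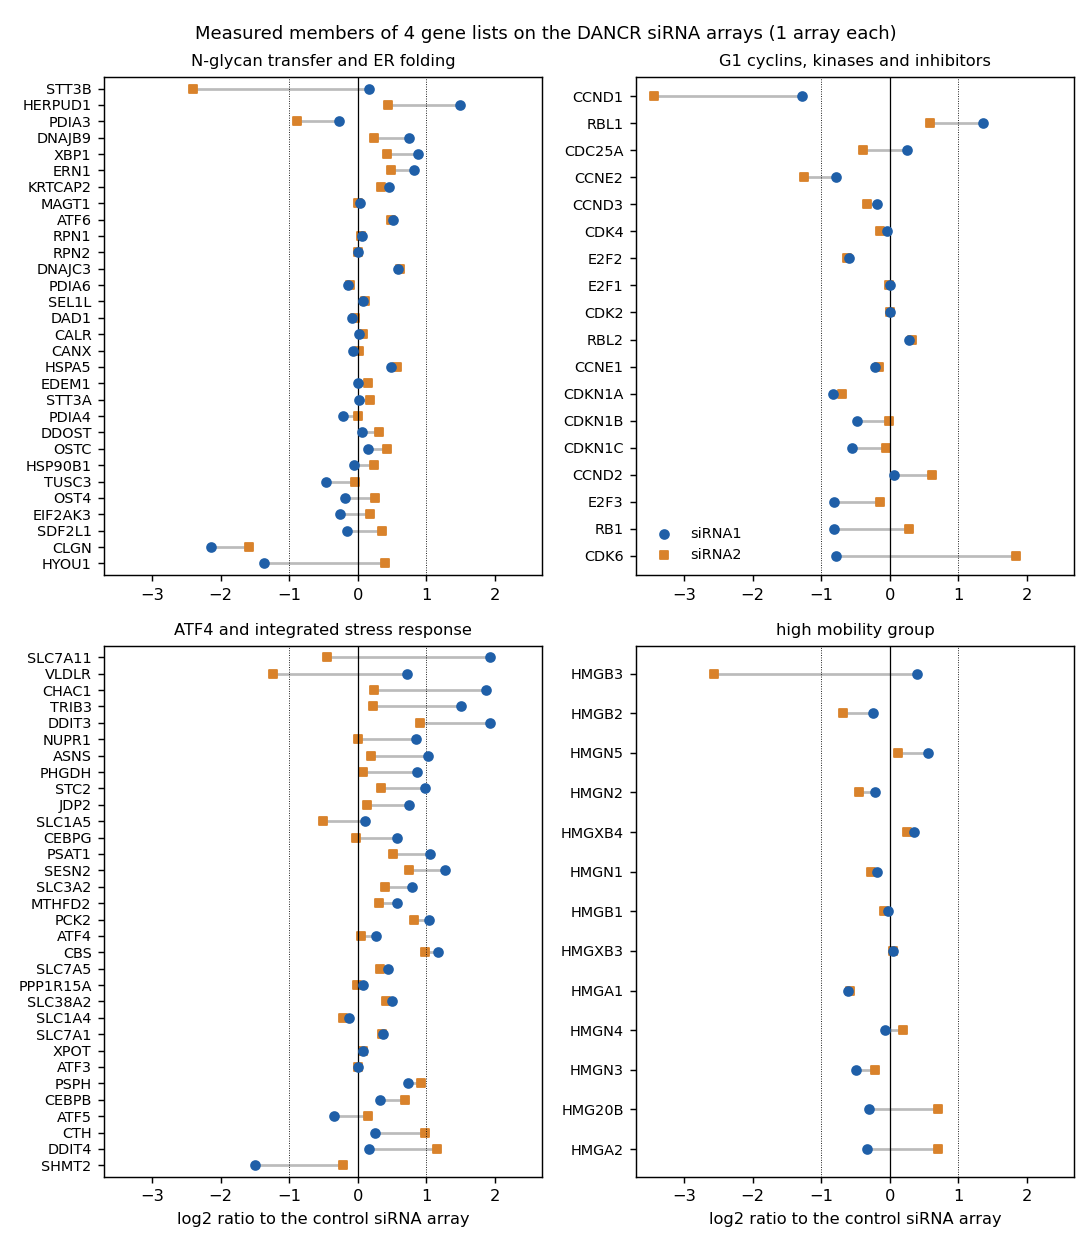
Log2 ratio to the control array (horizontal axis) with siRNA1 (circles) and siRNA2 (squares) for the measured members of 4 gene lists, sorted by the gap between the siRNAs. STT3B, CCND1, CDK6, SLC7A11 and HMGB3 stand apart from most members of their lists. They were given with the comparison and have some of the largest gaps of all measured genes, so this is no result about the lists.

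Promoters of these genes are shown because ATF4 binds a composite element with CEBP partners. The letters searched were TGATGNAA on both strands, in windows of 250 bases before to 50 after a gene's start from RefSeq (GRCh38.p14), 1 window per gene. The element was found in 3.67% of 27305 windows and in 5 of 28 windows of measured list members. These were CHAC1, ASNS, SLC3A2, SLC7A1 and ATF3, with log2 ratios of 1.64, 0.83, 0.39, 0.02 and 0.00. Among the other genes 2-fold higher with siRNA1, VLDLR, TRIB3 and DDIT3 had no match in their window, and SLC7A11 was not searched. Such a match describes letters and not a bound site. CHAC1 and ASNS are shown as the matched genes with the largest gaps. The first 250 bases of the windows of CHAC1 (chr15:40953221-40953470, plus strand, match on the opposite strand) and ASNS (chr7:97872409-97872658, minus strand) are printed 5' to 3' with the match in capitals.
CHAC1: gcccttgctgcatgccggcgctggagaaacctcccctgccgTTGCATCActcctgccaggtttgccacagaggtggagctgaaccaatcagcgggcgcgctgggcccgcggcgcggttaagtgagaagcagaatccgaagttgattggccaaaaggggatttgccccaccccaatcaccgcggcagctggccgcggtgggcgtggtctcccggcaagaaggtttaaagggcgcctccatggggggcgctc
ASNS: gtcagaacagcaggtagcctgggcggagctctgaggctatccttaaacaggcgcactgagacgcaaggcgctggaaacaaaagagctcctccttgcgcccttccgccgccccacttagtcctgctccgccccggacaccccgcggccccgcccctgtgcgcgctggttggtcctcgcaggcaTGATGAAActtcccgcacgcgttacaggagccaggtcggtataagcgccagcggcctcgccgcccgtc

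Genes of mitosis were slightly higher with siRNA1 than with siRNA2, nearly throughout the list. All 38 listed genes were measured, 35 were higher with siRNA1, 1 was lower and 2 were equal, and none was 2-fold apart. Over all measured genes 36.7% were higher with siRNA1, and the list's median was 0.41 against 0 for all genes. Without probe sets whose names end in _s_at or _x_at, which can match several transcripts, it was 0.25. MKI67, the proliferation marker Ki-67, read 299.9, 153 and 377 with siRNA1, siRNA2 and the control siRNA, the largest gap of the list. Its 3 further probe sets gave log2 ratios of 0.97, 0.34 and -0.11, so the gap was not seen on all of them. CCNB1, cyclin B1, read 489, 309.5 and 547, the mitotic kinase AURKB 194, 108 and 139.9, and CDK1 895, 596 and 835. The median against the control was -0.01 with siRNA1 and -0.36 with siRNA2. In these bulk samples fewer dividing cells and less RNA per cell cannot be told apart.

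DNA replication and nucleotide synthesis genes had a median of 0.30, with 29 of 36 measured members higher with siRNA1 and 6 lower. Over all measured genes 36.7% were higher and 41.8% lower. RFC4, a subunit of the clamp loader, read 629, 334 and 545 and the replicative helicase subunit MCM2 311, 185 and 349.5, both lowest with siRNA2. POLD1, the catalytic subunit of DNA polymerase delta, was lowest with siRNA1 (35, 68.7 and 95.5), as was UHRF1, which maintains DNA methylation (305, 439 and 676). None of the list was 2-fold apart.

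A promoter element shared by mitotic genes is the CHR, bound by the DREAM and MYB-MuvB complexes. Its core letters TTTGAA, on either strand, were found in 22 of 32 windows of measured mitosis genes and in 15.4% of all windows. The window of MKI67 (chr10:128126424-128126673, minus strand, first 250 bases) is printed with its matches in capitals.
MKI67: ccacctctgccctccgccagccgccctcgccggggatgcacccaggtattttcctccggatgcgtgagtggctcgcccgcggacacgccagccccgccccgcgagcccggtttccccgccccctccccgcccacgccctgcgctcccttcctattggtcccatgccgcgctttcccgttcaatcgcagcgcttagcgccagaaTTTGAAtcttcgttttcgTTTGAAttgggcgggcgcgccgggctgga

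Several lists were lower with siRNA1 than with siRNA2. YAP and TEAD genes, a transcriptional programme of cell shape and contact, had a median of -0.32 over 21 measured of 25, with 4 members 2-fold lower, none 2-fold higher and 15 lower in all. Over all measured genes 2.4% were 2-fold lower and 41.8% lower in all. After AXL, the gaps were largest for the matricellular proteins CCN1 and CCN2. CCN1 read 341, 1233 and 477 with siRNA1, siRNA2 and the control siRNA, and its second probe set 90.3, 317 and 141. CCN2 read 207, 500.3 and 248. In both genes the siRNA2 array was above the control and siRNA1 somewhat below. TEAD2, a DNA-binding partner of YAP, read 30.5, 61.5 and 35.9, and its log2 ratio was -0.94 by quantile normalisation and -0.08 by the median over probe sets. YAP1 itself read 541, 667 and 523 and TEAD1 493, 475 and 539.

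TEAD factors bind the letters GGAATG, found on either strand in 14% of all promoter windows and in 4 of 14 windows of measured list members. These were CCN2, PTPN14, YAP1 and LATS2, with log2 ratios of -1.27, -0.84, -0.30 and -0.27. Of the other 2-fold members AXL and TEAD2 had no match in their window, and CCN1 was not searched. CCN2, shown as the matched gene with the largest gap, had 3 matches, all within the first 250 bases of its window (chr6:131951373-131951622, minus strand), printed with the matches in capitals.
CCN2: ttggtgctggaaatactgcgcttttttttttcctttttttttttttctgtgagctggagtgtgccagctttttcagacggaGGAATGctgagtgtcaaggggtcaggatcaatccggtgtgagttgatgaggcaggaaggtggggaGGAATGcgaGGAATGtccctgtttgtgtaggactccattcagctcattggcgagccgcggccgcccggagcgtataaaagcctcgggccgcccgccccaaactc

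Matrix and adhesion genes were on the same side. Integrins, laminins and fibronectin had a median of -0.27 over 18 measured of 22, with 12 lower, 3 higher and 2 past 2-fold, beside 41.8% lower, 36.7% higher and 2.4% 2-fold lower over all measured genes. ITGA3 read 29.2, 60.4 and 69.2 and LAMB2 13.8, 29.2 and 20.3, while ITGB1, the common beta chain, read 1576, 2747 and 2243. ITGA3 was at -0.99 by quantile normalisation. ITGB1 had log2 ratios of -0.80, -1.35 and -1.12 on its 3 probe sets. FN1, fibronectin, read 30.2, 43.9 and 27. Mesenchymal genes had a median of -0.50 over 9 measured, with none past 2-fold, and VIM, vimentin, read 4412, 4861 and 5322. With the floor at the 30th percentile that median was -0.14.

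TGF-beta and BMP targets were split. PMEPA1, a feedback inhibitor of TGF-beta signalling, was 2.76-fold lower with siRNA1 (49.9, 138 and 49.9), with log2 ratios of -1.98 and -0.76 on the further probe sets, and TGFBI, a secreted matrix protein, was 2.36-fold lower (133, 313 and 249). The BMP targets ID1, ID2 and ID3 hardly differed between the siRNA arrays, with log2 ratios of 0.14, 0.04 and 0.02, at intensities of 1380.1, 1345 and 579 for ID2. The median of the list was -0.04 over 20 measured, of which 2 were 2-fold lower with siRNA1, beside 2.4% of all measured genes.

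Replication-dependent histone genes, whose transcripts normally lack a polyadenylated tail, showed gaps in a subset. Of 51 listed genes 23 were measured. With siRNA1, 3 were 2-fold lower and none 2-fold higher, beside 2.4% and 1.51% of all measured genes. At any size 10 were lower, 6 were higher and 7 had equal values. The 3 were H2BC4 (17.6, 47.6 and 15.9 with siRNA1, siRNA2 and the control siRNA), H2BC21 (11.5, 31.2 and 11.5) and H2AC6 (95.9, 220.4 and 48). H2BC5 read 157, 306 and 58 and H2BC12 431, 763 and 297, both short of 2-fold (log2 ratios of -0.96 and -0.82). The median was 0.00, and -0.68 with the floor at the 70th percentile, which leaves out the dim members. At that floor H2BC4 (-0.68) and H2BC21 (-0.06) were not 2-fold apart. H2AC6, H2BC5 and H2BC12 were above the control with siRNA1 as well. The 3'/5' ratio of ACTB was 11.8 with siRNA1, 14.4 with siRNA2 and 11.9 in the control, and its part in these gaps was not tested.

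The machinery that handles siRNAs was also compared. In RNA interference genes, 12 of 13 measured, 2 were 2-fold lower with siRNA1 and none 2-fold higher, beside 2.4% and 1.51% of all measured genes. At any size 6 were lower with siRNA1, 5 higher and 1 equal, and the median was -0.07. PRKRA, a partner of Dicer, read 54.2, 126 and 117 and AGO1, an Argonaute protein, 58, 125 and 123, with siRNA1 apart from the other arrays in both. AGO1 was not 2-fold apart by the median over its probe sets (-0.45). DICER1, the enzyme that makes small RNAs, read 107, 199.9 and 203 and had log2 ratios of -0.91, -1.12 and -1.09 on its 3 brightest probe sets and 0.23 on the dimmest. TNRC6A, a scaffold of silencing complexes, read 188, 326 and 358. AGO2, the Argonaute protein that cleaves targets, read 148, 129 and 134, nearly level.

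Interferon response genes and RNA sensors, which long or unmodified double-stranded RNA can induce, had a median of -0.18 over 24 measured of 36, with 19 lower with siRNA1 and 3 higher, where 41.8% and 36.7% of all measured genes were. ISG20, an exonuclease, was 2.56-fold lower (39.6, 101 and 79.4; log2 ratio -1.28 on the second probe set), IFI35 2.2-fold (36.4, 80.2 and 53.5) and the double-stranded RNA receptor TLR3 2.17-fold (11.4, 24.9 and 15.8; -0.83 by the median over probe sets). The cytosolic sensor RIGI read 38.5, 57.7 and 48 and IFIT1 55.5, 55.5 and 46.2. Against the control the list's median was -0.15 with siRNA1 and 0.10 with siRNA2.

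NF-kappaB targets and chemokines had a median of -0.16 over 16 measured of 23, which was -0.02 with the floor at the 30th or the 70th percentile and 0 without _s_at and _x_at probe sets. NFKB1, a subunit of the factor, was 2.02-fold higher with siRNA1 (75.2, 37.3 and 78.4), and the chemokine CCL2 read 124, 247 and 321, just short of 2-fold. PLAU, the urokinase, is not in that list and was among the genes followed up by the study. It was 2.71-fold lower with siRNA1 (538, 1457 and 3052), with a log2 ratio of -1.28 on its second probe set. In the tetrahydrobiopterin and folate list, 11 of 14 measured, GCH1 and SHMT2 were 2-fold lower with siRNA1, beside 2.4% of all measured genes. SPR, which completes tetrahydrobiopterin synthesis, read 323, 225 and 267. In the clathrin list, 15 of 17 measured, DNAJC6 was the only member past 2-fold, beside 3.92% of all measured genes. GCH1 and DNAJC6 had already been ranked by their gaps, so these counts are no result about the lists. GAK, a relative of DNAJC6, read 214, 239.9 and 197.

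**Figure D5:**
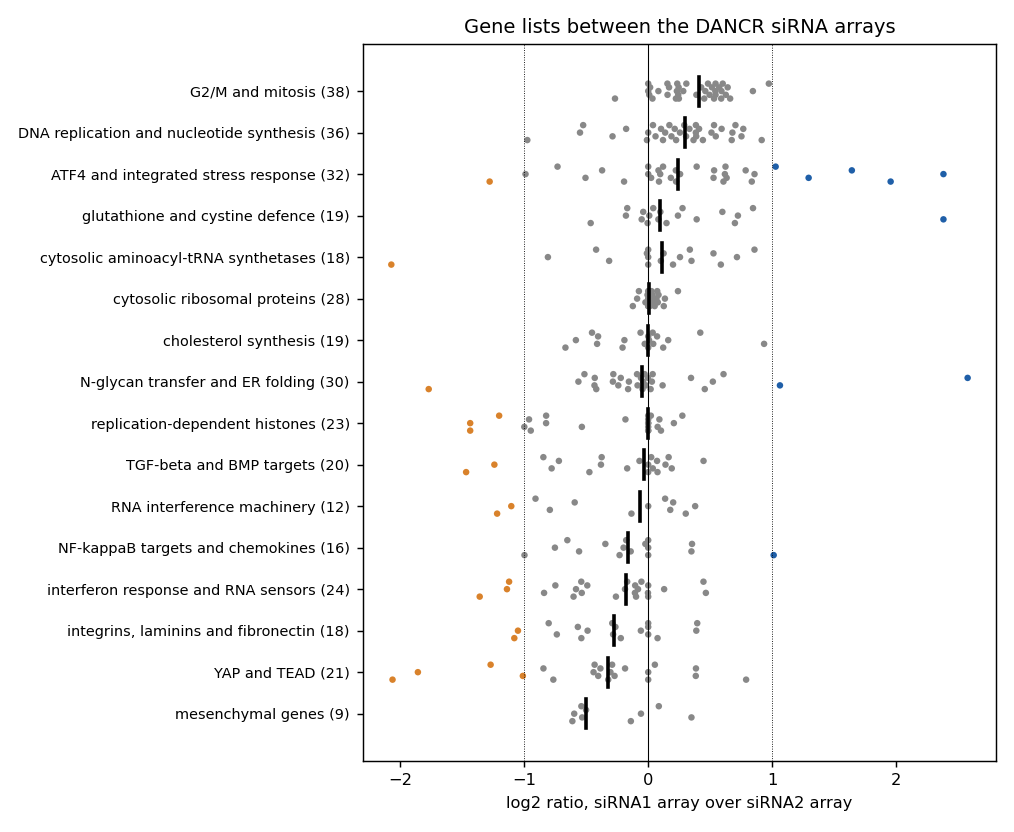
Log2 ratio of siRNA1 over siRNA2 (horizontal axis) for each measured member of 16 gene lists, with members 2-fold higher in blue and 2-fold lower in orange and the list's median as a black bar; the number measured is in parentheses. Mitosis genes lie to the right of 0 almost throughout, YAP and TEAD genes mostly to the left, and ribosomal protein genes close to 0.

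The ribosomal protein, housekeeping, cholesterol synthesis and p53 lists had no member past 2-fold and medians near 0. The mitosis, replication and mesenchymal lists had no member past 2-fold either, but their medians were further from it. All 28 measured ribosomal protein genes lay within 1.5-fold, beside 10722 of 12436 measured genes, with log2 ratios from -0.12 to 0.24. Housekeeping genes had a median of -0.02 over 13 measured, with GUSB (110.1, 161 and 245) the most unequal. Cholesterol synthesis genes had a median of 0.00 over 19 measured, among which HMGCS1 read 279.5, 146 and 246 and DHCR7 146, 232 and 249.5, in opposite directions. The p53 targets had a median of 0.00 over 17 measured. Of the snoRNA host RNAs listed, only GAS5 (16.8, 11.5 and 11.5) and EPB41L4A-AS1 (609, 456 and 470.3) were measured beside DANCR.

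Few markers of the labelled cell type or of other cell types were measured. Of 19 urothelial markers 5 were measured. KRT18 read 711, 1022 and 1315, KRT7 20, 23.9 and 28.2, GATA3 20.2, 35.2 and 20.2, and FOXA1 12.5, 12.5 and 15. The uroplakins UPK1A, UPK1B, UPK2, UPK3A and UPK3B, which define differentiated urothelium, were at or below the floor on all arrays. Of 10 fibroblast markers 5 were measured, of 10 endothelial markers 3 and of 12 leukocyte markers 4. Summed over members, fibroblast markers were at 213, 242 and 201 with siRNA1, siRNA2 and the control siRNA, endothelial markers at 42.9, 54.6 and 99.3 and leukocyte markers at 59.9, 53.5 and 62.1. Among the measured fibroblast markers, THY1 read 79.3, 88.6 and 105 and COL1A1 63.2, 60.1 and 63.2. COL3A1 read 49.9, 61.6 and 9.58, above the control with both siRNAs, and the control value was below the floor. The endothelial marker TIE1 read 10.1, 19.5 and 30.9, PECAM1 19.9, 22.6 and 25, and ECSCR 13, 12.5 and 43.3. The leukocyte marker CD79A read 22.9, 18.9 and 23. DCN, LUM, VWF, CDH5 and PTPRC were among the members at or below the floor on all arrays. None of the marker genes was 2-fold apart between the siRNA arrays.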

How the data were processed

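The authors deposited linear intensities for 54675 probe sets on each array. Whether and how the arrays were brought to a common scale before deposit is not given in the sources used here. GCOS 1.4 is named in the submitters' processing notes. The median intensities were 10.53 with siRNA1, 10.5 with siRNA2 and 10.53 in the control. Probe sets were named with the platform annotation, and symbols were updated by gene ID for 41043 of 41097 single-gene probe sets; 1801 naming several genes and 11777 naming none were not used. Control probe sets were kept for quality checks. The table median was the floor, the single-gene probe set with the highest mean stood for its gene, and a gene counted as measured where any array exceeded the floor. A log2 ratio of at least 1, or at most -1, counted as 2-fold. With 1 array per group there was no test, and the number of arrays limits the precision.

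The comparison, the members and the 28 gene lists were chosen with earlier results of these data known. Genes were named by a rule: DANCR and 5 genes given with the comparison; the 15 highest and 15 lowest ratios measured on both siRNA arrays; the 5 highest and 5 lowest with 1 array at the floor; list members 2-fold apart, with at least 4 members per list where measured; the families of the 5 given genes; and genes 2-fold in opposite directions against the control. Not all list members short of 2-fold that this rule picked are described in the text. Further list members are named as examples picked with their values known. Scripts were tested on simulated data. Promoter and miRNA sequences are from RefSeq (GRCh38.p14), 1 promoter window per gene, the first listed. Array positions are not given, since no build was named for the probe sets. Python 3.11.15, numpy 2.4.6, pandas 2.3.3 and matplotlib 3.10.9 were used.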

Additional observations from a re-analysis of the deposited data

Results flagged for a closer look

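SLC35F5, a member of a solute carrier family, was the only gene at least 2-fold from the control in opposite directions with the DANCR siRNAs, and this opposite movement is why it is listed here. Its intensity was 112 with siRNA1, 24.1 with siRNA2 and 53.4 with the control siRNA, log2 ratios to the control of 1.07 and -1.15. A second probe set read 78.6, 40.5 and 59.5 in the same order, with a log2 ratio of 0.96 between the siRNA arrays. Both ratios use 1 control array, and the difference was not tested.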

How the results depend on the processing

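Genes 2-fold higher and lower with siRNA1 numbered 188 and 299. With no floor or one at the 70th or 30th percentile, the median over probe sets, quantile normalisation, median-centred arrays, or probe sets without _s_at and _x_at suffixes, the counts ranged from 141 to 206 and from 210 to 317. At 1.5-fold they were 648 and 1066, and at 3-fold 33 and 44. Of 67 genes past 2-fold that were followed, 46 were past it the same way in every alternative that gave a value, and none changed sign. Most losses came from the median over probe sets, 13, and the floor at the 70th percentile, 8. Without _s_at and _x_at probe sets the median of the study targets turned from -1.32 to 0.42 and that of urothelial markers from -0.26 to 0.0855, and fewer genes were tested. No paired analysis was possible because each group has 1 array. With 1 array per group no spread was available, and dim genes have ratios limited by the floor.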

Other observations

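Some of the brightest genes past 2-fold were outside the groups described so far, and they were picked with their values known. Rows of 3 intensities are in the order siRNA1, siRNA2 and control. HSPD1, the mitochondrial chaperonin Hsp60, had intensities of 5448 with siRNA1, 2097 with siRNA2 and 4097 with the control siRNA. Its further probe sets read 1762, 424 and 1158, and 62.2, 29.9 and 54.5, so all 3 placed siRNA1 highest and siRNA2 lowest at 2-fold or more. CYCS, cytochrome c, was in the opposite order, with 775 with siRNA1, 2327 with siRNA2 and 1671 with the control siRNA, and 14.9, 49.4 and 28.2 on its second probe set, and its dimmest gave a log2 ratio of -0.30. NOLC1, a nucleolar phosphoprotein, read 899, 1969.9 and 903 with siRNA1, siRNA2 and the control siRNA, and its further probe sets gave log2 ratios of -1.43 and -1.32 between the siRNA arrays.

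MORF4L2, a paralogue of MORF4L1, read 3906, 1765 and 3419 on its brightest probe set, with a log2 ratio of 1.15, and gave 0.14 and 0.14 on the dimmer ones. TM4SF1, a tetraspanin-like surface protein, read 1044, 2128 and 1093, with log2 ratios of -0.81, -0.59 and -0.25 on its further probe sets.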
